A study of Mus musculus with 30 samples.

Results

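The genes of eicosanoid synthesis described here are Pla2g4a, Ptgs1, Ptgs2, Tbxas1, Ptges3, Alox12, Alox5, Alox5ap, Lta4h and Ltc4s. They were taken by name, through their Ensembl identifiers, and are 10 of the 54532 genes in the count tables. Female C57BL/6 mice, aged 6 to 8 weeks at the start, were injected subcutaneously under the right flank with 100 µl of Hanks' balanced saline solution (HBSS). C group received HBSS alone, S group 2000 cells of the mouse melanoma line B16F10 and O group 100000 such cells. Blood was drawn on day 14, when by the study's methods O group had palpable tumors and S group had none that could be seen at autopsy. Poly-A RNA of blood platelets and of peripheral blood mononuclear cells (PBMCs) was sequenced as 5 libraries per group and tissue, 30 in all. Each library was made from RNA pooled over several mice, by the labels 5 or 10 mice for the platelets of C group, 10 for those of S group and 3 to 5 for those of O group. For the platelets of S group the study's methods give pool sizes that differ slightly from the labels. PBMC pools held 5 mice in C group, 4 or 5 in S group and 3 to 5 in O group. An SD is therefore the spread between pools, and each group is a mixture in which single mice cannot be seen.

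Eicosanoids are signalling lipids made from arachidonic acid, which cytosolic phospholipase A2 cuts out of membranes. Cyclooxygenases turn the freed acid into prostaglandin H2, from which thromboxane synthase makes thromboxane A2, the lipid by which activated platelets recruit further platelets. The 12-lipoxygenase of platelets makes 12-HETE from the same acid, while 5-lipoxygenase with its partner FLAP starts the leukotrienes, which are known chiefly as products of neutrophils, monocytes, eosinophils, basophils and mast cells.

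Platelet libraries held 12259036 to 25360080 counts on genes (median 17140564) and PBMC libraries 13390983 to 15973449 (median 14684708). Levels are given as CPM, counts brought to a common library size, which was scaled by trimmed mean of M values (TMM) over the 30 libraries. The labelled tissues were checked against markers. Of 12 platelet markers 11 passed the filter on low counts and all 11 were higher in platelets by edgeR's quasi-likelihood F test, and the remaining one, Gp1bb, had at most 39 counts in a library. Summed platelet markers were at 14330 to 80460 CPM in platelet libraries and at 483.6 to 6221 CPM in PBMC libraries, which thus held platelet RNA too. Erythroid markers took 4.18% to 41.2% of the counts of a platelet library, most in replicate 1 of O group. They took 6.76% to 27.2% in PBMCs of O group, against 3.35% to 9.78% in the other PBMC groups. In bulk samples fewer cells of a type and less RNA per cell cannot be told apart.

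Between these genes, levels can be compared only per length of exon. In platelets Alox12 came first with 1058 ± 442.3 CPM per kb (SD, n = 15), followed by Alox5ap with 465.6 ± 214.9, Ptgs1 with 88.1 ± 35.6 and Tbxas1 with 38.1 ± 18.7. Each of the first 3 was above the next in 15 of 15 libraries, and Tbxas1 was above Ptges3 in 13 of 15. Ptges3 (18.1 ± 2.93 CPM per kb) was followed by Lta4h (7.36 ± 1.27), Pla2g4a (5.79 ± 1.62) and Alox5 (5.23 ± 6.85). The last 3 overlapped within their spread: Lta4h was above Pla2g4a in 12 of 15 libraries, and Pla2g4a above Alox5 in 11 of 15. Ltc4s and Ptgs2 closed the order at 0.199 ± 0.246 and 0.188 ± 0.146 CPM per kb and were not separated.

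In PBMCs the order was another one. Alox5ap (71.0 ± 18.6 CPM per kb, n = 15) stood above Alox12 (61.5 ± 40.3) in only 11 of 15 libraries, so these did not differ beyond their spread. Ptges3 followed with 11.6 ± 1.41 and Lta4h with 8.88 ± 0.963 CPM per kb, each above the next in at least 13 of 15 libraries. Ptgs1 (5.20 ± 2.45), Alox5 (4.93 ± 3.54), Tbxas1 (4.02 ± 2.17) and Ptgs2 (3.83 ± 4.39) overlapped with each other. Pla2g4a reached 1.06 ± 0.211 and Ltc4s 0.105 ± 0.0941 CPM per kb. With the longest transcript as length in place of all exons, the mean of Tbxas1 was 76.0 CPM per kb in platelets and 8.01 in PBMCs. By that length Lta4h was at 16.8 CPM per kb in PBMCs and stood above Ptges3, so the order of this pair depends on the length used.

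**Figure D1:**
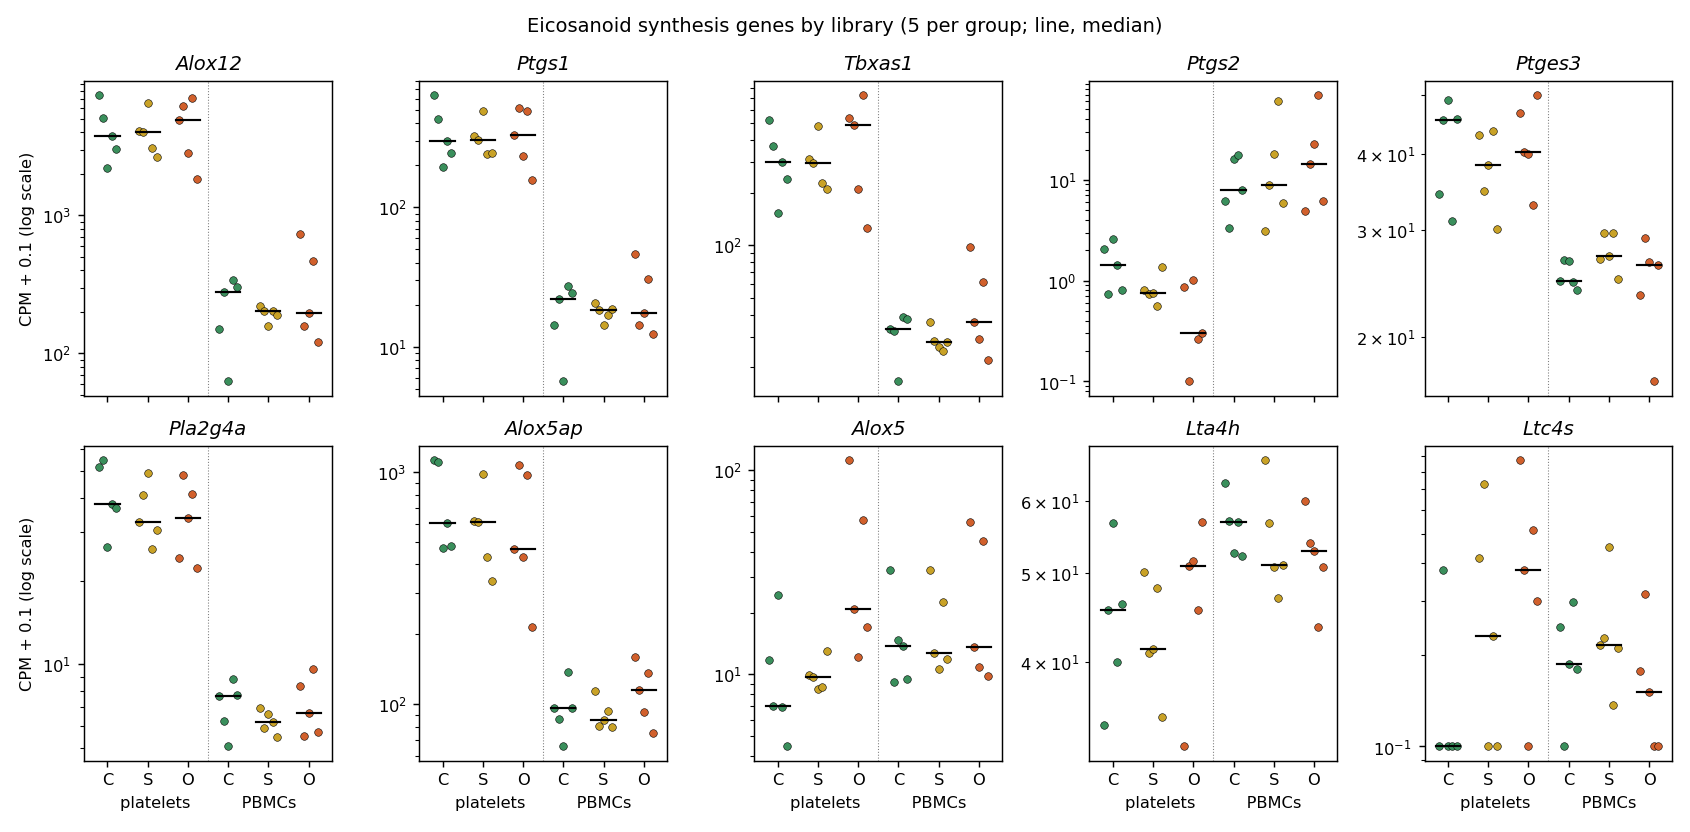
Level of each of the 10 genes in every library, as CPM + 0.1 on a log axis, for platelets and PBMCs of C, S and O groups (5 libraries per group, line at the median). Alox12, Ptgs1, Tbxas1, Alox5ap and Pla2g4a lie higher in every platelet library than in any PBMC library, Ptgs2 lies lower, and Alox5 in platelets is highest in replicates 1 and 4 of O group.

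Whether the platelet and leukocyte branches of the pathway divide between the tissues was asked across the 30 libraries while allowing for the group. By edgeR, 81.0% of 16498 genes tested passed at an adjusted P of 0.05, 35.8% being higher in platelets and 45.2% lower. Of the 10 genes 9 passed the filter on low counts and 8 of these were called, 6 higher in platelets and 2 lower, so the count called is near that of all genes. One of the 2 lower ones, Ptgs2, passed the filter through PBMCs alone. The median log2 fold change of the 9 was 2.46, against -0.17 over all genes tested. That median depends on the scaling. With total counts in place of TMM, an alternative chosen after seeing the data, the median of all genes moved from -0.17 to -1.38, so that fold changes between the tissues are to be read relative to it.

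Alox12 (ENSMUSG00000000320, GRCm38 chromosome 11, 70241457 to 70255353, reverse strand), the platelet 12-lipoxygenase, had the largest fold change of the genes higher in platelets. It was at 7423, 5125, 2214, 3793 and 3012 CPM in the 5 platelet libraries of C group, at 4110, 4042, 6496, 3093 and 2652 CPM in S group and at 4908, 6164, 2851, 7100 and 1826 CPM in O group. In PBMCs it was at 148.8, 276.5, 62.4, 340.5 and 301.7 CPM in C group, at 220.5, 202.1, 156.9, 201.1 and 189.9 CPM in S group and at 729.6, 158.1, 195.4, 465.1 and 120.9 CPM in O group. No PBMC library reached the lowest platelet library, and within platelets the 3 groups covered one another. Against PBMCs the log2 fold change was 4.14 ± 0.29 (SE, edgeR, adjusted P = 7.3e-14) and 2.88 with total count scaling. Among PBMC libraries Alox12 was lowest in replicate 3 of C group and highest in replicate 1 of O group, which also held the lowest and the highest sum of platelet markers (483.6 and 6221 CPM). The part of platelet RNA in these PBMC values was not tested.

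Ptgs1 (ENSMUSG00000047250, chromosome 2, 36230426 to 36252272, forward strand) encodes cyclooxygenase 1, the constitutive enzyme that feeds thromboxane synthesis in platelets. It ranged from 155.8 to 634.0 CPM in platelets (median 302.8, n = 15) and from 5.55 to 46.3 CPM in PBMCs (median 18.4, n = 15). The ranges lay far apart, with a log2 fold change of 4.10 ± 0.25 (SE, edgeR, adjusted P = 2.2e-15). Tbxas1 (ENSMUSG00000029925, chromosome 6, 38875404 to 39084585, forward strand), thromboxane synthase, ranged from 125.5 to 723.8 CPM in platelets (median 298.7) and from 16.5 to 97.6 CPM in PBMCs (median 32.0). Here too every platelet library was above every PBMC library, and the log2 fold change was 3.27 ± 0.24 (SE, edgeR, adjusted P = 1.7e-13). The counting is not stated to use strand, so that reads from antisense genes which share 148 exonic bases with Ptgs1 (Gm43621, 4 counts in all libraries) and 144 with Tbxas1 (Gm42962, 549 counts) could not be told apart from theirs.

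The start regions of the 3 genes that carry this branch in platelets, Alox12, Ptgs1 and Tbxas1, are shown beside that of Alox5, which did not follow them. Each run is the RefSeq window of 250 bases before and 50 bases after the start of transcription (build GRCm38.p6), 5′ to 3′ on the gene's strand, and 9 of the 10 genes had such a window. That of Tbxas1 lies within the span of the gene given above, at the RefSeq start and not at its first annotated base. Capitals mark matches on either strand to motifs of factors known from megakaryocytes and blood cells: GATA (the word AGATAA and also its variant AGATAG, likewise the word TGATAA and also its variant TGATAG), RUNX (TGTGGT) and ETS (AGGAAG). Capitals also mark the GC box (GGGCGG), which is not counted among those motifs.
Alox12, chr11:70255321-70255620, reverse strand: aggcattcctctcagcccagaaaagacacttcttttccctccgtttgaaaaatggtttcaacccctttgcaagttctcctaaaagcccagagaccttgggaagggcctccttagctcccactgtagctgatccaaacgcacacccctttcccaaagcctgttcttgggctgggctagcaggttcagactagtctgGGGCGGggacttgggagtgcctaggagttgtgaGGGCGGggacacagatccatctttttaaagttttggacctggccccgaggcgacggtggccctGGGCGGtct
Ptgs1, chr2:36230176-36230475, forward strand: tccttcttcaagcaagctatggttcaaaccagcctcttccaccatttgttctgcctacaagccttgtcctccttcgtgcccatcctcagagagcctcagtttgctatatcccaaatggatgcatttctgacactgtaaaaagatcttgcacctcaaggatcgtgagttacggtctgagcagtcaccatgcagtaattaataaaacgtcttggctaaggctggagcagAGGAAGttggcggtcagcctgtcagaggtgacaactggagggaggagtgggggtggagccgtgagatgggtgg
Tbxas1, chr6:38918736-38919035, forward strand: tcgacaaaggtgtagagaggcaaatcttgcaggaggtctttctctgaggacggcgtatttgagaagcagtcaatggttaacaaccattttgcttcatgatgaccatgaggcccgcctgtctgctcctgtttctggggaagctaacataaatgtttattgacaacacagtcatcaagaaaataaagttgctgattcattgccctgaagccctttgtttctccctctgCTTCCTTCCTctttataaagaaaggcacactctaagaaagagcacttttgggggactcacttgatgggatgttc
Alox5, chr6:116461129-116461428, reverse strand: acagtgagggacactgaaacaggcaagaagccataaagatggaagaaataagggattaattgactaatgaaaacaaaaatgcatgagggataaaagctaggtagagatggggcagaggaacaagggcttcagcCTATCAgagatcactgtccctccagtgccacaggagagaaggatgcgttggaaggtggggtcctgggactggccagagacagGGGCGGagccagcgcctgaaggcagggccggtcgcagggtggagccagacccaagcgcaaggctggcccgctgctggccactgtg

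The capitals in Alox12 are 3 GC boxes, whose first bases lie at positions -55, -22 and 42 from the start. Ptgs1 held 1 ETS word at position -23. In Tbxas1 the run of capitals is made of 2 ETS words on the opposite strand, which overlap and begin at positions -24 and -20. Alox5 held a GATA word on the opposite strand at position -117 and a GC box at position -35. Of 32851 windows of the same length, 29.8% held a GATA word, 16.8% the RUNX word, 35.4% the ETS word and 35.7% the GC box, so each of these words is common. The matches describe letters in these windows and no binding was measured.

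Pla2g4a (ENSMUSG00000056220, chromosome 1, 149829618 to 149961290, reverse strand) encodes cytosolic phospholipase A2, which releases the arachidonic acid for all branches. It was at 22.1 to 54.4 CPM in platelets (median 36.5, n = 15) and at 4.95 to 9.49 CPM in PBMCs (median 6.53, n = 15). The 2 ranges did not touch, and the log2 fold change was 2.46 ± 0.13 (SE, edgeR, adjusted P = 2.4e-16). Ptges3 (ENSMUSG00000071072, chromosome 10, 128058954 to 128077272, forward strand), the cytosolic prostaglandin E synthase that is also the cochaperone p23, was at 30.0 to 49.8 CPM in platelets and 16.8 to 29.5 CPM in PBMCs. Its log2 fold change was 0.64 ± 0.08 (SE, edgeR, adjusted P = 3.1e-08) and -0.56 (adjusted P = 0.00089) with total count scaling, so its sign depends on the scaling, while under both it lay above the median of all genes (-0.17 and -1.38). Reads of its processed pseudogene Ptges3-ps (4607 counts in all libraries) may be split with it.

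Ptgs2 (ENSMUSG00000032487, chromosome 1, 150100031 to 150108227, forward strand), the inducible cyclooxygenase 2, went the other way. Platelet libraries held 0 to 35 counts of it, or 0 to 2.48 CPM (median 0.706, n = 15). PBMC libraries held 63 to 1621 counts, or 3.04 to 68.9 CPM (median 8.80, n = 15). Every PBMC library was above every platelet library, but Ptgs2 passed the filter through PBMCs alone, so a difference was bound to follow and the levels stand as a description.

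On the leukotriene side the genes did not move as one. Alox5ap (ENSMUSG00000060063, chromosome 5, 149264767 to 149288153, forward strand), which encodes FLAP, the membrane protein that hands arachidonic acid to 5-lipoxygenase, stood with the platelet genes. It was at 214.9 to 1123 CPM in platelets (median 605.9, n = 15) and at 65.6 to 159.4 CPM in PBMCs (median 92.9, n = 15). Its log2 fold change was 2.71 ± 0.21 (SE, edgeR, adjusted P = 4.2e-13), with no overlap between the tissues. The antisense gene Gm19719 (1388 counts in all libraries) shares 189 exonic bases with it.

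Alox5 (ENSMUSG00000025701, chromosome 6, 116410077 to 116461178, reverse strand) encodes 5-lipoxygenase itself. Its levels overlapped between the tissues and spread more widely in platelets. They ran from 4.33 to 111.8 CPM in platelets (median 11.7, n = 15) and from 9.10 to 55.5 CPM in PBMCs (median 13.6, n = 15). The log2 fold change was -0.23 ± 0.34 (SE, 95% interval -0.93 to 0.46, edgeR, adjusted P = 0.53). It was -1.47 (adjusted P = 3.98e-05) with total count scaling, close to the median of all genes under that scaling, and 0.70 (adjusted P = 0.41) within O group alone.

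Lta4h (ENSMUSG00000015889, chromosome 10, 93453411 to 93484875, forward strand), the hydrolase that makes leukotriene B4, was at 32.2 to 56.7 CPM in platelets and 43.5 to 66.3 CPM in PBMCs. The ranges overlapped and the log2 fold change was -0.27 ± 0.08 (SE, edgeR, adjusted P = 0.0032), little below the median of all genes. Taken alone, C group gave -0.32, S group -0.15 and O group -0.14, and the call was lost in each (adjusted P = 0.067, 0.31 and 0.46). It was also lost in 4 of the 30 fits that left out a library, for example without platelet replicate 5 of O group (adjusted P = 0.11). Ltc4s (ENSMUSG00000020377, chromosome 11, 50236461 to 50238616, reverse strand), leukotriene C4 synthase, had 0 to 6 counts in platelet libraries and 0 to 8 in PBMC libraries. It passed no filter, and a count of 0 allows up to 3 counts, which is 0.151 to 0.578 CPM in platelet libraries and 0.110 to 0.230 CPM in PBMC libraries. The antisense gene Gm26542, which shares 268 exonic bases with Ltc4s, had 445 counts.

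**Figure D2:**
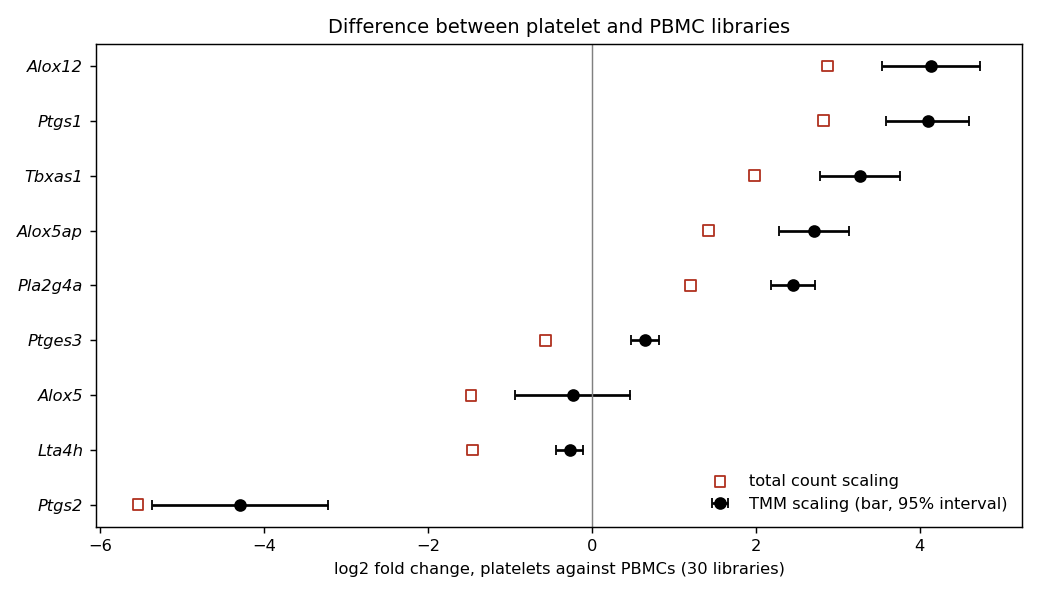
Log2 fold change, platelets against PBMCs, over 30 libraries for the 9 genes tested, with TMM scaling (points with 95% interval) and with total count scaling (open squares). Total count scaling moves all 9 genes to the left, as it moves the median of all genes from -0.17 to -1.38, and takes Ptges3 from 0.64 to -0.56.

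Ratios of counts within a library are free of the scaling between libraries. The count of Ptgs1 was 6.72% to 9.28% of that of Alox12 in platelet libraries (median 8.10%, n = 15) and 6.34% to 10.2% in PBMC libraries (median 8.97%, n = 15). These ranges cover each other although the level of both genes differs between the tissues by over 4 on the log2 scale. Tbxas1 stood at 6.87% to 10.9% of Alox12 in platelets and at 11.4% to 26.5% in PBMCs, with no overlap. Alox5ap was at 9.53% to 21.6% of Alox12 in platelets and at 21.8% to 105.1% in PBMCs. Alox5 was at 0.129% to 2.28% in platelets and at 3.11% to 23.4% in PBMCs. The excess over Alox12 in PBMCs was thus least for Ptgs1 and grew from Tbxas1 over Alox5ap to Alox5.

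**Figure D3:**
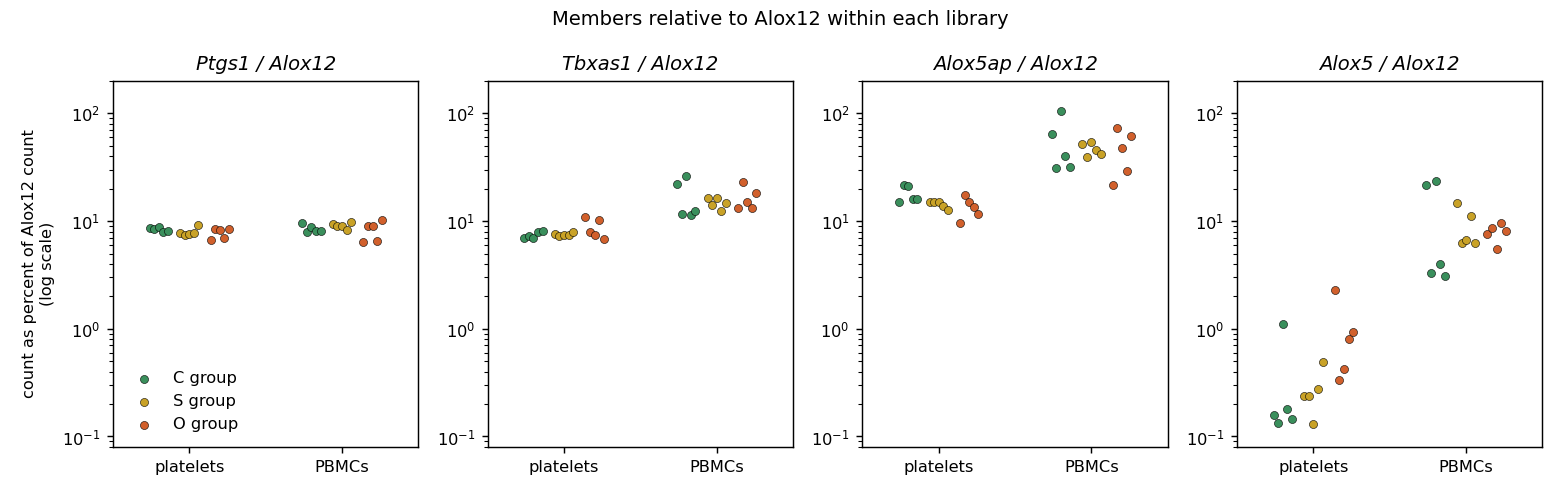
Counts of Ptgs1, Tbxas1, Alox5ap and Alox5 as percent of the Alox12 count of the same library, on a log axis, in platelets and PBMCs (5 libraries per group). Ptgs1 keeps the same range in both tissues, and Alox5 lies at 0.129% to 2.28% in platelets against 3.11% to 23.4% in PBMCs.

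Among platelets, the thromboxane and 12-lipoxygenase genes did not separate the 3 groups in any comparison. Between S group and C group 0 of the 8 genes tested had an unadjusted P under 0.05 in edgeR's test, and 0 in DESeq2, where edgeR called 6.42% of all genes tested. The smallest adjusted P of the 8 was 0.84 and log2 fold changes ran from -0.31 for Alox5ap to -0.01 for Tbxas1. The 95% interval of S group against C group was -0.77 to 0.68 for Alox12, -0.76 to 0.50 for Ptgs1 and -0.64 to 0.62 for Tbxas1, so differences within these bounds could not be seen. Ptgs2 and Ltc4s did not pass the filter in these platelet comparisons. Where every gene with at least 1 count was tested, Ptgs2 was lower in O group than in C group (log2 fold change -1.93, edgeR, unadjusted P under 0.05), on the few counts given further on.

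Alox5 was the exception. In platelets it was at 11.7, 6.89, 24.5, 6.81 and 4.33 CPM in C group, at 9.82, 9.57, 8.41, 8.53 and 12.9 CPM in S group and at 111.8, 20.7, 12.1, 57.2 and 17.1 CPM in O group. Replicates 1 and 4 of O group were far above all others, while the other 3 of O group lay below the highest library of C group, and the groups overlapped. Between S group and O group Alox5 was the 1 of 8 genes with an unadjusted P under 0.05, where 13.9% of all genes were called. Its log2 fold change was -2.09 ± 0.56 (SE, 95% interval -3.30 to -0.88, edgeR, adjusted P = 0.23). It was likewise the 1 of 8 between O group and C group, where 4.79% of all genes were called, with a log2 fold change of 1.96 ± 0.67 (SE, 95% interval 0.50 to 3.42, edgeR, adjusted P = 0.91). Without replicate 1 of O group the former was -1.36 and the latter 1.18, both still called. Neither passed the adjustment over all genes. Both comparisons share the libraries of O group.

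Markers of neutrophils, a cell type with abundant 5-lipoxygenase, moved with Alox5 in platelets. Their summed level was 234.8 to 1095 CPM in C group, 307.3 to 513.9 CPM in S group and 531.0 to 5390 CPM in O group. Of 13 markers 10 were tested, of which 6 were lower in S group than in O group and 4 higher in O group than in C group at an unadjusted P under 0.05. Replicate 1 of O group had the highest sum (5390 CPM) beside the highest Alox5, and replicate 3 of C group, the library of that group with the most Alox5, had 1095 CPM. Replicate 4 of O group had the second highest Alox5 of the 15 libraries but, at 531.0 CPM, the lowest sum of its group. The markers S100a8 and S100a9 were at 70.0 to 1867 and 100.1 to 1961 CPM in platelet libraries, and the granule genes Elane and Mpo had at most 5 and 3 counts. Between S group and O group other lists moved the opposite way, higher in S group: 3 of 10 monocyte, 6 of 6 T cell, 4 of 6 B cell and 4 of 6 NK cell markers. Lower in S group were 1 of 3 basophil and mast cell, 1 of 7 erythroid and 1 of 11 platelet markers tested. Against C group, 3 of 6 T cell, 3 of 6 B cell and 1 of 6 NK cell markers were lower in O group and 0 of 10 monocyte markers were called. The part of these cell types in the result was not tested.

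In PBMCs the comparison of S group with C group called 0 of the 9 genes tested, in edgeR as in DESeq2, where edgeR called 2.64% of all genes, or 4.30% with the replicate numbers as a block, which left the 9 uncalled. Nearest was Ptges3 at a log2 fold change of 0.13 ± 0.07 (SE, edgeR, adjusted P = 1.0). The count of 0 rested on replicate 3 of C group, the library poorest in platelet markers. Without it Alox12 fell by 0.45, Tbxas1 by 0.30 and Pla2g4a by 0.30 on the log2 scale in S group, each past the same threshold. Fits without 1 library called 327 to 603 of all genes in this comparison. The comparison of O group with C group called 0 of 9, in DESeq2 too, where edgeR called 11.9% of all genes.

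Between S group and O group 1 of 9 genes, Tbxas1, had an unadjusted P under 0.05 in PBMCs, where 12.2% of all genes were called. It was at 36.3, 28.4, 26.0, 24.9 and 28.0 CPM in S group and at 97.6, 36.5, 29.1, 61.5 and 21.9 CPM in O group, against 33.1, 32.0, 16.5, 38.8 and 37.7 CPM in C group. Only replicates 1 and 4 of O group stood apart, and the lowest library of all was in C group. The log2 fold change was -0.87 ± 0.37 (SE, 95% interval -1.69 to -0.05, edgeR, adjusted P = 0.38). It ranged from -1.07 to -0.43 when 1 library was left out. DESeq2 and the fit of every gene with at least 1 count called 3 of the genes, Tbxas1 and with it Alox12 and Alox5ap, all lower in S group. Of all genes these fits called 13.2% and 7.08%. The call of Tbxas1 was lost without replicate 1 (-0.43) or 4 of O group or without replicate 2, 3, 4 or 5 of S group. Blocking on the replicate number ended the call as well (-0.65). With total count scaling, which moved the median of all genes in this comparison to 0.36, it was -0.32 and not called. Replicates 1 and 4 of O group also had the highest sums of platelet markers of all PBMC libraries (6221 and 3870 CPM) and of neutrophil markers (4338 and 3501 CPM), and the highest shares of erythroid markers (27.2% and 20.3% of counts). In this comparison all 7 erythroid and 3 of 11 neutrophil markers tested were lower in S group, and 6 of 6 T cell and 6 of 6 NK cell markers were higher. Of 11 platelet markers 0 were called, but their median log2 fold change was -0.89, near that of Tbxas1. The part of these cells in the result was not tested.

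**Figure D4:**
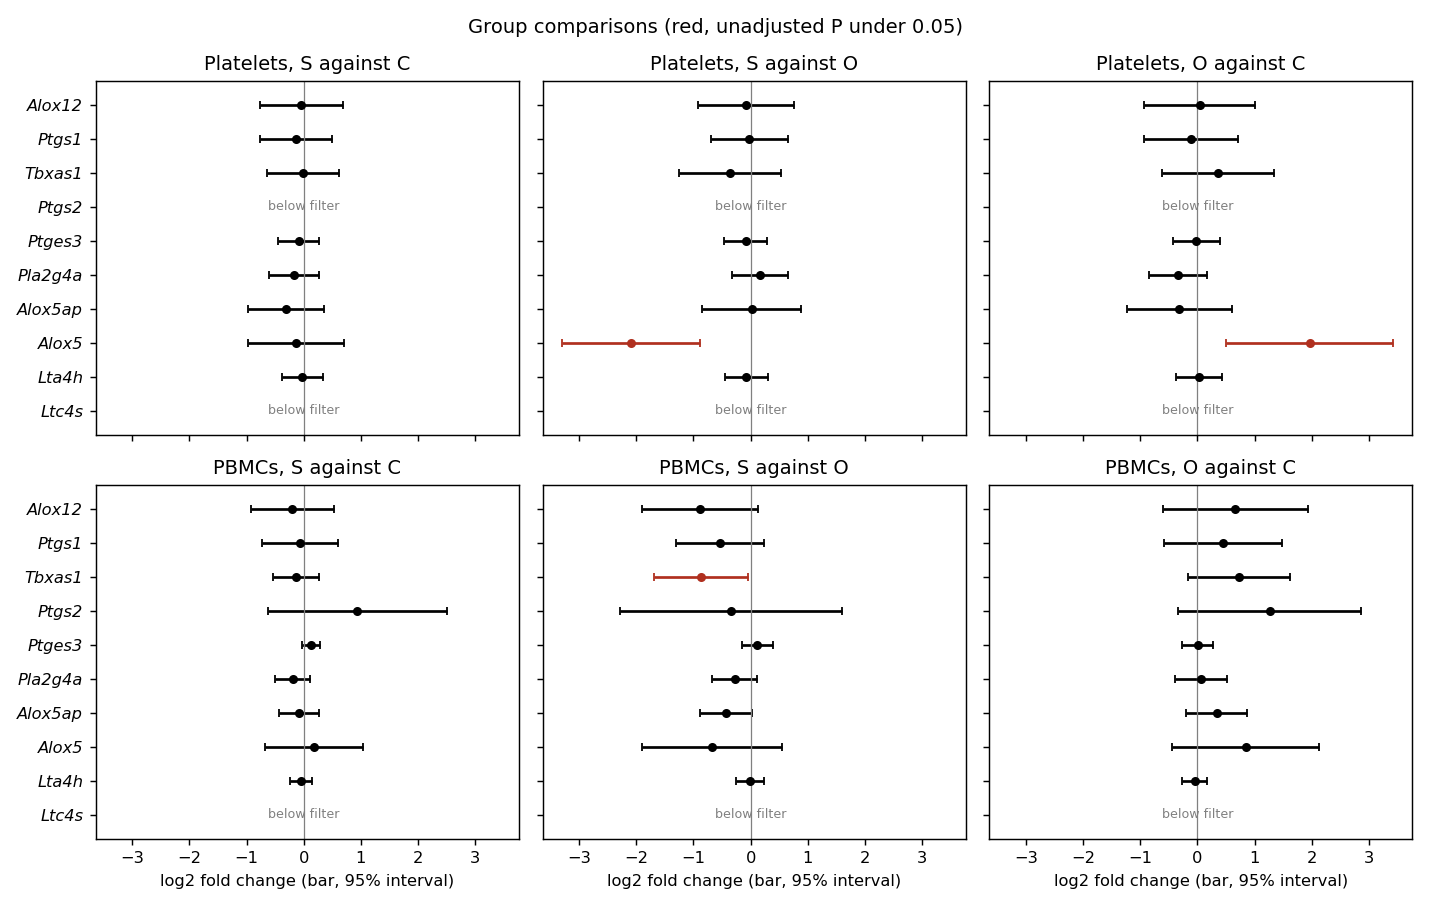
Log2 fold changes with 95% interval of the genes tested in the 3 group comparisons, 8 of the 10 in platelets and 9 in PBMCs (5 against 5 libraries, red where the unadjusted P is under 0.05). Alox5 in platelets stands apart at -2.09 for S against O and 1.96 for O against C, and Tbxas1 in PBMCs is at -0.87 for S against O.

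In PBMCs the levels of Ptgs2 and Alox5 had the same replicate number highest in every group, as had Ptges3 (replicate 2) and Lta4h (replicate 1), 4 of the 10 genes in all. How many of all genes do so was not counted, so the 4 are not read as a result about these genes. In platelets the highest replicate was not the same in every group for any of the 10 genes. Ptgs2 was at 6.04, 3.23, 16.1, 17.4 and 7.79 CPM in replicates 1 to 5 of C group, at 3.04, 8.80, 17.8, 60.3 and 5.86 CPM in S group and at 4.82, 14.2, 22.6, 68.9 and 6.03 CPM in O group. Replicate 4 was the highest and replicate 3 the second highest in each of the 3 groups. Alox5 was at 32.4, 9.10, 14.6, 13.7 and 9.38 CPM in C group, at 32.5, 12.6, 10.5, 22.6 and 11.8 CPM in S group and at 55.5, 13.6, 10.7, 45.1 and 9.69 CPM in O group, with replicate 1 the highest in each. For Ptgs2 the log2 fold change was 0.94 ± 0.72 for S group against C group (SE, edgeR, adjusted P = 1.0), 1.26 ± 0.73 for O group against C group (adjusted P = 0.50) and -0.34 ± 0.88 for S group against O group (adjusted P = 0.90). Blocking on the replicate number gave -0.43 for the last, called at an unadjusted P under 0.05. Without replicate 4 of O group, the value for O group against C group was 0.27. Basophil and mast cell markers were also highest in replicate 4 in each of the 3 groups (97.0, 186.4 and 266.8 CPM), neutrophil markers in C and S groups (1560 and 2442 CPM) but not in O group, and eosinophil markers in replicate 1 in each group (86.9, 89.8 and 47.0 CPM). In the basophil and mast cell list Hdc reached 211.7 CPM and Gata2 38.1 CPM in PBMCs. Mcpt8, Cpa3, Fcer1a, Ms4a2 and Prss34 reached at most 6.2, 3.6, 3.1, 7.3 and 8.9 CPM. The highest sum of that list thus rested mainly on Hdc. The part of these cell types in the levels of Ptgs2 and Alox5 was not tested, and the labels do not say what the numbers stand for. The study speaks of 5 independent experiments but does not tie them to the numbers.

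**Figure D5:**
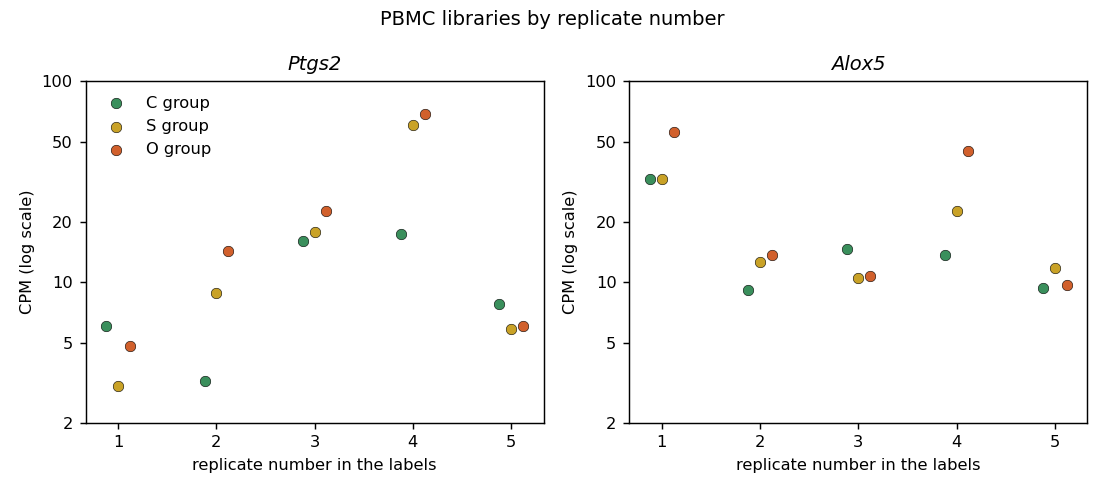
Levels of Ptgs2 and Alox5 in the 15 PBMC libraries, as CPM on a log axis, by the replicate number of the labels (points set apart slightly by group). Replicate 4 is the highest for Ptgs2 and replicate 1 for Alox5 in each of the 3 groups.

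Whether the groups differed in another way in platelets than in PBMCs was tested as an interaction over the 30 libraries. Of the 9 genes 0 passed at an unadjusted P of 0.05 for S against C, in DESeq2 too, where edgeR called 5.38% of all genes. For S group against O group edgeR called 13.6% of all genes and 0 of the 9, with Alox5 nearest at a difference of -1.56 ± 0.79 on the log2 scale (SE, adjusted P = 0.38), and DESeq2 called 0 as well. For O group against C group, where 6.59% of all genes were called, 1 of 9 was called. This was Ptgs2, at -3.27 ± 1.24 on the log2 scale (SE, edgeR, adjusted P = 0.59). It entered this fit through PBMCs, since it did not pass the filter among platelets, and no difference between the tissues is read from it. The platelet libraries of C group held 22, 9, 35, 13 and 7 counts of Ptgs2, those of S group 9, 6, 6, 7 and 17 and those of O group 4, 0, 8, 2 and 4, against 82 to 437 counts in PBMCs of C group and 63 to 1146 in those of O group. By CPM, 2 platelet libraries of C group (0.633 and 0.706) lay within the range of O group, whose highest 2 were at 0.771 and 0.920 CPM. With a block for libraries of the same group and number, Alox5 was called in the interactions of S with O (-1.35) and of O with C (1.23) at an unadjusted P under 0.05. Neither was called in the reported fit, which has no block. PBMCs were prepared from the blood left by the platelets, but the sources used here do not say whether a number marks the same mice in both tissues. In O group replicates 1 to 5 pooled 3, 4, 5, 3 and 5 mice in platelets and in PBMCs alike. Both Alox5 interactions were also called with total count scaling, and they shrank to -0.61 and 0.33 without platelet replicate 1 of O group. With 1 library left out, they were called in 6 and 2 of 30 fits. Whether Alox5 differed between the tissues thus depends on the block, the scaling and the libraries kept.

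Around these 10 genes stand 74 others of the pathway, listed by role. Between the tissues 62 of them were tested and 54 were called by edgeR at an adjusted P under 0.05, 25 higher in platelets and 29 lower, against 81.0% of all genes. Some of them passed the filter on low counts through one tissue alone, so that a difference was bound to follow, and the counts stand as a description. Their median log2 fold change was -0.29, near the -0.17 of all genes. Of 8 tested genes of further prostanoid synthesis 5 were called higher and 0 lower, with Ptgds and Ptgis among the 5 through platelets alone. Ptgds, a prostaglandin D synthase, was at 19.98 CPM in platelets and 0.135 CPM in PBMCs (means, n = 15), and Ptgis, prostacyclin synthase, at 1.29 and 0.0132 CPM. In PBMCs both were within or under what a count of 0 allows, so no fold is given. Of the 6 tested genes of the cytochrome P450 and epoxide branch 5 were lower and 1, Ephx2, which is named for this count after its values were seen, was called higher. Ephx2, an epoxide hydrolase, was at 1.34 CPM in platelets and 0.0831 CPM in PBMCs, under what a count of 0 allows, and passed the filter through platelets alone. Cyp4f16, of the family of leukotriene and fatty acid hydroxylases, had -2.73 ± 0.16. For receptors 4 of 12 were higher and 8 lower.

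Of the other genes with the largest differences, Slco2a1 and Dpep1 passed the filter through platelets alone and are given by their levels. Slco2a1, the prostaglandin transporter, was at 8.24 CPM there and 0.148 CPM in PBMCs, and Dpep1, a dipeptidase that cleaves leukotriene D4, at 1.30 and 0.0232 CPM, again at levels in PBMCs that give no fold. Pla2g10, a secreted phospholipase A2, had a log2 fold change of 4.33 ± 0.29 (SE). Pla2g7, which breaks down platelet-activating factor, was lower in platelets (-2.58 ± 0.28). Also listed lower were the prostaglandin E2 receptor Ptger1 (0.644 CPM in platelets and 5.38 in PBMCs), the dipeptidase Dpep2 (0.172 and 1.23 CPM) and the prostaglandin D2 receptor Ptgdr2 (0.0737 and 0.487 CPM), whose platelet levels were close to, within or under what a count of 0 allows and give no fold.

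In the group comparisons of platelets, edgeR's unadjusted P was under 0.05 for 4 of 52 tested pathway genes between S group and C group, all higher in S group, where 6.42% of all genes were called, so the count is near that of all genes. They were Pla2g6 (0.67 ± 0.23 on the log2 scale, SE), Ephx1 (0.59 ± 0.21), Dpep1 (1.201 ± 0.48) and Tbxa2r, the thromboxane receptor (0.44 ± 0.20). By the same test 4 of 6 T cell, 2 of 6 B cell, 2 of 6 NK cell and 1 of 10 monocyte markers were higher in S group too, whose part was not tested. For S group against O group 16 of 52 were called, 6 higher and 10 lower, against 13.9% of all genes. Ephx1, microsomal epoxide hydrolase, had the smallest P (1.34 ± 0.27, adjusted P = 0.23). The leukotriene B4 receptors Ltb4r1 (-1.83 ± 0.61) and Ltb4r2 (-2.29 ± 0.73) and Anxa1 (-1.47 ± 0.47), which inhibits phospholipase A2, were lower in S group, as Alox5 was. For O group against C group 11 of 50 were called, 7 higher and 4 lower, against 4.79% of all genes. Ltb4r1 (1.78 ± 0.67) and Ltb4r2 (2.47 ± 0.84) were among the higher ones, in the libraries where neutrophil markers were higher as well, whose part was not tested.

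In PBMCs 1 of 54 tested pathway genes was called between S group and C group, Prxl2b (-0.43 ± 0.20 on the log2 scale, SE, adjusted P = 1.0), a prostaglandin F synthase, against 2.64% of all genes. For S group against O group 13 of 53 were called, 3 higher and 10 lower, against 12.2% of all genes, with Gpx1 (-2.16 ± 0.58, adjusted P = 0.30) and Mgst3 (-3.17 ± 0.87), both abundant in erythroid cells, first among them. Mgst2, another enzyme that can make leukotriene C4, was higher in S group (0.30 ± 0.11). For O group against C group 12 of 53 were called, 8 higher and 4 lower, against 11.9% of all genes. Gpx1 had 2.31 ± 0.58 and Mgst3 3.04 ± 0.86 there, and by the same test all 7 erythroid and 1 of 11 neutrophil markers were higher in O group, and 6 of 6 T cell and 4 of 6 NK cell markers lower. Their part was not tested.

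Among 12927 genes with sufficient counts in the 15 platelet libraries, those most like Alox12 by Pearson's r of log2(CPM + 1) were Qsox1 (0.993), Gabarapl1 (0.991), Serpine2 (0.990), Hk1 (0.988) and Itgb4 (0.987). Ptgs1 had an r of 0.982, Tbxas1 of 0.970, Alox5ap of 0.908 and Pla2g4a of 0.759 with Alox12. Lta4h (-0.461), Ptges3 (-0.382) and Alox5 (0.188) did not follow it. Most like Alox5 were Pygl (0.939), Tkt (0.928), Ankrd33b (0.925), Pgam1 (0.922) and Casp4 (0.916). All these points share their library, its depth and its scaling factor, and the values are descriptions of 15 libraries.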

How the data were processed

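Platelet and PBMC libraries were aligned and counted by the authors with HISAT2 (version 2.0.5) and featureCounts (version 1.5.0-p3), per the submitters' processing notes, and deposited as raw read counts per Ensembl gene, 1 table per tissue. The notes name build mm9, but 54495 of the 54532 identifiers are in GENCODE M21 (GRCm38), from which positions and exon lengths were taken. Mouse strain, sex and age, the day and the outcome of the injections follow the labels and the study's methods. The platelet samples carry a cell type tag of PBMC, while title and source name say platelets, and these were followed.

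Counts were tested with edgeR 4.0.16 in R 4.3.3 (limma 3.58.1): filterByExpr, TMM, quasi-likelihood F test, with Benjamini-Hochberg adjustment over all genes tested. Each pair of groups was fitted alone, and tissue (group as covariate) and interactions over 30 libraries. An unadjusted P under 0.05 called a gene between groups, and between tissues the adjusted P was used. The study reports a Benjamini-Hochberg adjustment and a threshold of P under 0.05, without saying which P the threshold applied to. SE is the log2 fold change divided by the root of F. P-values measure the spread between pools. The genes and lists were chosen with earlier results of these data known. Named were all 10 genes, up to 8 pathway genes with the smallest P per group comparison (of these, examples), 5 per direction between tissues, and the 5 genes most correlated with Alox12 and with Alox5. Alternatives were DESeq2 1.42.0, RLE size factors, no filter beyond 1 count, a replicate block, all 3 groups in one fit, single groups, the longest transcript as length, each library left out, and total count scaling. The fits were tested on simulated data. All 60 pairs of replicates differed beyond sampling noise. In PBMCs of S and C groups, same-numbered deviations from the group mean correlated at 0.274 to 0.565 in 5 of 5 pairs. Libraries with different numbers were not compared in this way, so whether the numbers pair the libraries is not settled.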

Additional observations from a re-analysis of the deposited data

Results flagged for a closer look

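In groups of 5 libraries, a library whose gap to its neighbour took more than 0.71 of the group's range (Dixon's test) was found in 5 of 60 groups of a gene and tissue. A rate of about 1 in 20 by chance holds only for independent, normal values. These groups share libraries, and a gene with counts in 1 library alone is always flagged, as Ltc4s was in platelets of C group. The 5 are therefore not read as an excess. In PBMCs the flagged libraries were replicate 4 of S group (60.3 CPM) and replicate 4 of O group (68.9 CPM) for Ptgs2, and replicate 1 of C group (32.4 CPM) for Alox5. The other 2 rest on few counts: Ltc4s in platelet replicate 2 of C group (0.281 CPM, 4 counts) and in PBMC replicate 3 of S group (0.353 CPM, 8 counts). The last library also had more genes detected (32900) than any other.

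The interaction of Ptgs2 for O group against C group passed the unadjusted threshold but not the adjustment over all genes, and its platelet side rests on 0 to 35 counts, under the filter among platelets. It was -3.27 on the log2 scale (edgeR, adjusted P = 0.59).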

How the results depend on the processing

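Between the tissues 7 to 8 of the 9 genes were called when 1 library was left out. Alox5 was at 0.70 within O group alone. Total count scaling turned Ptges3 to -0.56 between the tissues and to 0.0018 in the interaction of S with C. It also turned Ptgs1 (0.0010), Pla2g4a (0.14) and Alox5ap (0.022) for S against O in PBMCs, and Alox5ap (-0.14) for O against C, where it moved the median of all genes to 0.36 and -0.37. These values stayed on the same side of that median. Ptgs2 for S against C in PBMCs ranged from -0.19 (without replicate 4 of S group) to 1.21.

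The number of the 10 genes called rose for O against C in platelets to 2, by Ptgs2, with every gene of at least 1 count and with all 3 groups in one fit. For S against O in PBMCs it was 3 in DESeq2 (13.2% of all genes) and 3 with every gene of at least 1 count (7.08%), Alox12 and Alox5ap beside Tbxas1. It was 2 with total count scaling (26.7% of all genes, here Lta4h and Ptges3) and 2 with the replicate block (13.8%, here Ptgs2 and Alox5ap). For O against C in PBMCs it was 1 with total count scaling (Lta4h). For the interactions it was 1 (S with O) and 2 (O with C) both with the replicate block and with total count scaling, each by Alox5. Outside PBMCs of S and C groups the correlation of same-numbered libraries was over 0.1 in 1 to 4 of 5 pairs, and 4 of 5 for platelets against PBMCs in O group (highest 0.609), a hint from the data that the labels do not settle. The block moved the call of no other of the 10 genes but Tbxas1 (lost, at -0.65) for S against O in PBMCs.

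With 1 library left out, the number called ranged from 0 to 1 (S against C), 1 to 1 (S against O) and 1 to 2 (O against C) in platelets, the additions being Ptgs2, without replicate 2 or 5 of C group, or, for O against C, also without replicate 1 or 2 of O group. In PBMCs it ranged from 0 to 3 for S against C, 0 to 3 for S against O and 0 to 1 for O against C, where Ptgs2 was called without replicate 1 of O group (1.52) and Tbxas1 without replicate 5 (0.92), while their lowest values were 0.27 (without replicate 4) and 0.28 (without replicate 1). For interactions it ranged from 0 to 0, 0 to 1 and 1 to 2.

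Levels per length with the longest transcript were 76.0 and 8.01 CPM per kb (platelets and PBMCs) for Tbxas1, 10.7 and 1.95 for Pla2g4a and 13.9 and 16.8 for Lta4h. With total counts they were 12.2 and 18.2 for Ptges3, 3.72 and 1.62 for Pla2g4a, 5.03 and 13.8 for Lta4h, and in PBMCs 7.72 for Ptgs1 and 107.5 for Alox5ap.

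The genes called among all those tested went from 852 to 1399 (S against C), 1849 to 1043 and 635 to 409 in platelets, and from 1796 to 3918 (S against O) and 1759 to 4403 in PBMCs, with total count scaling, and for the interactions from 2245 to 1176 (S with O) and 1088 to 1949 (O with C). With every gene of at least 1 count they became 2097, 3131 and 1547 in platelets, 1512 for S against C in PBMCs (400 as reported, 651 with the block), and 2156 (887 as reported) and 1875 for the interactions of S and of O with C. With all 3 groups in one fit, 954 were called for O against C in platelets. With 1 library left out, the genes called among all those tested ranged in platelets from 556 to 1542 (S against C), 1293 to 2146 (S against O) and 474 to 1072 (O against C), in PBMCs from 327 to 603, 1343 to 2677 and 1191 to 2634, and for the interactions from 721 to 1652, 1771 to 2907 and 908 to 1611. Low counts limit what can be said of Ltc4s in both tissues and of Ptgs2 in platelets, and the part of depth in them was not tested.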
